A study of Homo sapiens with 9 samples.

Results

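The MYC, MAX and MXD network was followed in a study of IMR32 cells, a human neuroblastoma line known for amplified MYCN. It was taken as the probe sets that the platform annotation pairs with MYC, MYCL, MAX, MXI1, MXD1, MXD4, MNT, MLX or MGA. Of these 9 genes, 8 were measured by 16 probe sets with 1 gene symbol, among 22215 probe sets tested. MAX had 5, MLX 4, MYCL 2, and MYC, MXI1, MXD1, MNT and MGA 1 each. The 3 probe sets of MXD4 are paired with the microRNA gene MIR4800 as well, so their values are given apart and stay out of every count.

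MYC, MYCN and MYCL are transcription factors that bind DNA as pairs with MAX, mostly at short sites called E-boxes, and raise genes of growth, ribosome production and the cell cycle. The MXD proteins, MXI1 (also called MXD2) and MNT compete for MAX and recruit co-repressors to the same sites. MGA is another repressive partner of MAX, and MLX is a relative of MAX that pairs with MLXIP or MLXIPL in the response to glucose. Neuroblastoma cells with amplified MYCN commonly hold little MYC.

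Single-channel oligonucleotide arrays were run on total RNA of 3 groups of 3 samples, which the series' design text calls biological replicates. The first group was IMR32 with stable expression of the 69-kDa form of choline acetyltransferase (ChAT), the enzyme that makes acetylcholine, and the second had the 82-kDa form. The third group was labelled as wild-type IMR32, the control. As a separate line carries each form, effects of the form and of the line cannot be told apart. The sources used here do not say whether a line is 1 clone or a pool. The values are linear RMA intensities, RMA being a method of background correction, between-array normalization and averaging over probes. What follows gives the intensity on each array and the difference of group means on the log2 scale with its standard error (SE).

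The label of the third group is in doubt, so it is called the arrays labelled wild type here. Log2 values of those arrays correlated with the lines at 0.913 to 0.933 over all probe sets, against 0.974 to 0.998 among the arrays of both lines. Of 14 measured neuroblast markers, MYCN among them, 10 were higher in each line. The summed intensity of the 14 ran from 11207 to 20795 over the lines, against 1979 to 2219 for the arrays labelled wild type. MYCN, 1 of the 10, read 4181 to 6118 within the line sums and 62.5 to 120.5 within the others. It is therefore not separate from the MYCN values given below. Of 13 epithelial markers 8 were lower in each line, with sums of 785 to 948 and 7040 to 7885. Of 12 mesenchymal markers 3 were higher and 3 lower in each line (sums of 2502 to 3772 and 3928 to 6465). Of 5 Schwann and glial markers, and of 6 haematopoietic ones, 1 each was lower. Sums of the glial markers were 332 to 488 in the lines and 328 to 385 on the other arrays, and those of the haematopoietic markers were 706 to 990 and 998 to 1179. TH, which makes the catecholamine precursor, was near background on every array, and DSP and CDH1, junction proteins of epithelia, were near background on every line array. With the replicate block, where 16.6% of all probe sets rose, 5 mesenchymal markers were higher in the 69-kDa line, and 2 haematopoietic ones. The glial call (ERBB3) was lost in the 69-kDa line without its replicate 2 or 3. The neuroblast, epithelial and mesenchymal lists thus differ in each comparison against the arrays labelled wild type given below, and their part in the network's differences was not tested. The glial and haematopoietic lists were called at 20% and 16.7%, under the 29.4% and 30.3% of all genes called in the 69-kDa and the 82-kDa line.

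MLX and MNT have an E-box close to the gene start in the RefSeq promoter table (GRCh38.p14), and their upstream bases are shown first. They are shown because each was also higher in at least 1 line. The motif searched was CACGTG, which reads the same on both strands, in windows from 250 bases before to 50 bases after each listed start. Of the 9 genes 8 had a window (MYC did not match), and 3 of them held the motif, which were MLX, MNT and MXD4. It lay in 7.26% of the 35116 windows of that length in the table, and in at least 1 window of 8.77% of the genes. The motif began 50 bases before the start in MLX, 193 in MNT and 238 in MXD4. The windows of MAX, MYCL, MXI1, MXD1, MGA and MYCN held no CACGTG, though MAX was higher in both lines by part of its probe sets. MXD4 held the motif, and its shared probe sets gave no upward call. Any link of the motif with the differences was not tested. A match describes these letters and is no evidence of binding. The 250 upstream bases run 5′ to 3′ on the gene's strand with the motif in capitals, for MLX at chr17:42566850-42567099 (plus strand) and for MNT at chr17:2401061-2401310 (minus strand).
MLX: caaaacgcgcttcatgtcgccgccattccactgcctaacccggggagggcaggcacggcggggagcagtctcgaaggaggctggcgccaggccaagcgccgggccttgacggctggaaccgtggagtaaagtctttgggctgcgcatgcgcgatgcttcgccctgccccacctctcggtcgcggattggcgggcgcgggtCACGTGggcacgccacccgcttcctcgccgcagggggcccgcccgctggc
MNT: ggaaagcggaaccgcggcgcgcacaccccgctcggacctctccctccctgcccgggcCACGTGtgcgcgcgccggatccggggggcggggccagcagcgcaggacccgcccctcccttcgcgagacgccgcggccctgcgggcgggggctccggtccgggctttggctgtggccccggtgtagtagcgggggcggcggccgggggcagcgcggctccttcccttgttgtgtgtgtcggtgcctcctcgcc

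Of the other paralogues, MYC was the one that differed between the groups, and it was higher where MYCN was low. The MYCL probe sets gave signal on those arrays too, with values given below. Its probe set (202431_s_at) read 232.9, 124 and 229 on the arrays labelled wild type, replicates 1 to 3. It read 33.01, 35.9 and 33.5 in the 69-kDa line and 33.9, 34.0 and 32.4 in the 82-kDa line. All line arrays lay below 55.9, the lowest lower quartile of any array, and so near background, while all arrays labelled wild type lay well above them, replicate 2 at the lowest level. The group means on the log2 scale were 5.09 ± 0.06 (SD, n = 3) for the 69-kDa line, 5.06 ± 0.04 for the 82-kDa line and 7.55 ± 0.52 for the arrays labelled wild type. MYC was about 5.50-fold lower in the 69-kDa line (log2 difference -2.46, SE 0.21, limma adjusted p = 5.5e-05) and about 5.62-fold lower in the 82-kDa line (-2.49, SE 0.21, 5.2e-05). These folds are approximate, since the lower level is near background. In bulk RNA, fewer cells that express a gene and less RNA per cell cannot be told apart.

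MYCN, the paralogue that the question turns on, ran the other way. Its probe sets read 1035 to 1276 (209756_s_at), 4181 to 6118 (209757_s_at) and 1112 to 1849 (211377_x_at) over both lines, against 38.0 to 39.6, 62.5 to 120.5 and 107 to 145 for the arrays labelled wild type. The wild-type mean was 1.76% to 9.01% of the mean over the lines, depending on the probe set, so the arrays that read MYC are those that barely read MYCN. Intensities of different probe sets are not on a common scale, so the level of MYC on the one side cannot be set against that of MYCN on the other.

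MYCL, the third paralogue, gave no call in any comparison. Its brighter probe set (214058_at) read 166, 137 and 156 in the 69-kDa line, 197, 171 and 146 for the 82-kDa line, and 195.5, 166 and 176 on the arrays labelled wild type. The other (215491_at) read 63.2 to 98.3 over all 9 arrays, with replicate 1 highest in every group. All groups overlap at both probe sets, except that at the brighter one the 69-kDa line and wild type only touch, at an identical value (165.7678). The differences of the brighter one from wild type were -0.23 (95% interval -0.52 to 0.06, adjusted p = 0.25) and -0.07 (-0.36 to 0.22, adjusted p = 0.72) on the log2 scale. The dimmer one gave 0.05 (-0.44 to 0.53) and 0.11 (-0.38 to 0.60). A difference of the size seen for MYC lies outside these intervals, which hold for the signal of both probe sets. How well either one follows MYCL RNA was not tested, and the dimmer one lies not far above the lowest lower quartile.

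**Figure D1:**
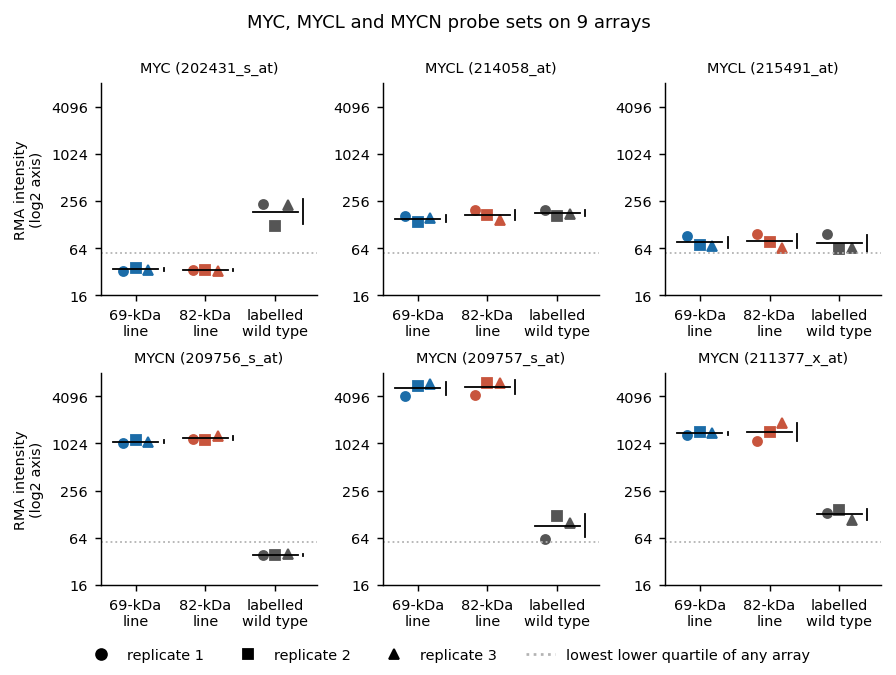
RMA intensity (log2 axis) of the probe sets of MYC, MYCL and MYCN on each of the 9 arrays; points are arrays, horizontal lines are group means of log2 values and vertical lines 1 SD either side. MYC stands at 124 to 233 only on the arrays labelled wild type, where the MYCN probe sets are at 38.0 to 145. The groups overlap or touch for MYCL.

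MAX, the shared partner without which the MYC proteins do not bind DNA well, was modestly higher in both lines. Probe set 210734_x_at read 438, 413 and 400.01 in the 69-kDa line, 410.4, 510.3 and 539 for the 82-kDa line, and 305, 288 and 305 on the arrays labelled wild type. Every line array lay above every array labelled wild type. It was 1.39-fold higher in the 69-kDa line (0.48, SE 0.11, adjusted p = 0.011) and 1.61-fold higher in the 82-kDa line (0.69, SE 0.11, adjusted p = 0.0015).

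Probe set 208403_x_at of MAX read 220.3, 236 and 237 in the 69-kDa line, 243, 256 and 254 for the 82-kDa line, and 184, 180.3 and 196 on the arrays labelled wild type, again with no overlap. It was 1.24-fold (adjusted p = 0.013) and 1.34-fold higher (0.0024). Probe set 209331_s_at read 603, 573 and 644, then 545, 649.6 and 724, then 418, 476 and 435 in the same order of groups. It was 1.37-fold (adjusted p = 0.017) and 1.44-fold higher (0.0088). In the 69-kDa line the call of 208403_x_at was lost without replicate 2 or 3 of that line or replicate 2 of wild type (adjusted p = 0.059, 0.055 and 0.051). The call of 209331_s_at was lost there without replicate 3 of that line or replicate 1 or 3 of wild type (0.066, 0.060 and 0.057).

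The remaining probe sets of MAX did not pass. The brightest (209332_s_at) read 1161 to 1504 in the 69-kDa line, 946 to 1414 in the 82-kDa line and 992 to 1201 for the arrays labelled wild type, with replicate 1 lowest in every group. Its difference was 0.31 in the 69-kDa line (adjusted p = 0.24, and 0.030 with the replicate number as a block) and 0.15 in the 82-kDa line (adjusted p = 0.55). In replicates 2 and 3 alone the values were 0.34 (adjusted p = 0.0083) and 0.26 (0.028). The dimmest (214108_at) stayed at 60.5 to 69.4 on all arrays, just above the lowest lower quartile, so it can show little.

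MLX, the MAX relative, was higher in both lines by part of its probe sets. Probe set 217909_s_at read 1403, 1056 and 1180.5 in the 69-kDa line, 1037, 1056 and 1234 for the 82-kDa line, and 862, 760.0 and 838 on the arrays labelled wild type. No line array fell to the range of those arrays. It was 1.47-fold higher in the 69-kDa line (0.56, SE 0.12, adjusted p = 0.0089) and 1.35-fold higher in the 82-kDa line (0.43, SE 0.12, adjusted p = 0.029). The second call was lost when replicate 2 or 3 of the 82-kDa line or any array labelled wild type was left out (adjusted p from 0.0505 to 0.10).

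Probe set 213708_s_at of MLX read 900 to 1136, 936 to 1238 and 705 to 837 in the 69-kDa line, the 82-kDa line and wild type. Its difference from wild type was 0.36 in the 69-kDa line (adjusted p = 0.084, and 0.025 with the block) and 0.44 in the 82-kDa line (0.040). That last call was lost without replicate 1 or 3 of the 82-kDa line, replicate 3 of the 69-kDa line or any array labelled wild type (adjusted p from 0.058 to 0.14). Probe set 217910_x_at gave 0.30 (adjusted p = 0.087) and 0.34 (0.052, and 0.042 with the block), with no overlap between either line and wild type. Probe set 210752_s_at, the dimmest at 81.6 to 136, gave 0.40 (adjusted p = 0.095, and 0.020 with the block) and 0.32 (0.17, and 0.045 with the block). All 4 probe sets of MLX thus read higher on average in both lines, while the test called 1 for the 69-kDa line and 2 for the 82-kDa line.

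**Figure D2:**
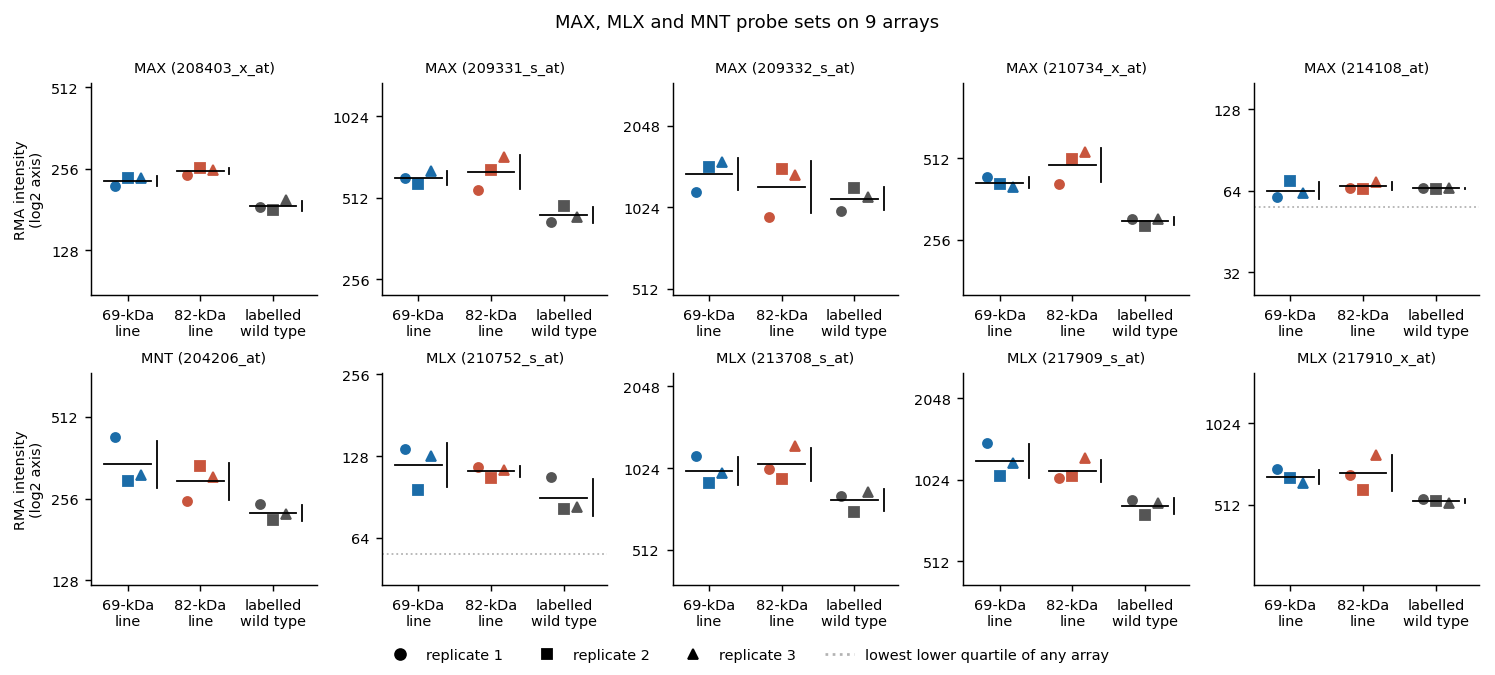
RMA intensity (log2 axes with different ranges) of the 5 probe sets of MAX, 1 of MNT and 4 of MLX on each of the 9 arrays; points are arrays, horizontal lines group means of log2 values and vertical lines 1 SD either side. All 6 line arrays lie above the 3 arrays labelled wild type in 3 of the 5 MAX panels, in the MNT panel and in 3 of the 4 MLX panels.

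MNT, the broadly expressed antagonist of MYC, read 430.4, 296 and 314 in the 69-kDa line, 249.8, 338 and 307 for the 82-kDa line, and 244, 213 and 224 on the arrays labelled wild type. The lines lay above wild type without overlap, though replicate 1 of the 82-kDa line did so narrowly. MNT was 1.51-fold higher in the 69-kDa line (0.59, SE 0.16, adjusted p = 0.026). That call was lost without replicate 1 of that line (0.051) or replicate 2 (0.087) or 3 (0.074) of wild type. In the 82-kDa line the difference of 0.39 missed the threshold (SE 0.16, adjusted p = 0.12), and passed without replicate 1 of the 69-kDa line (0.045). In replicates 2 and 3 alone MNT was higher in both lines, by 0.48 (adjusted p = 0.0028) and 0.56 (0.0014).

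Of the MXD antagonists, MXI1 and MXD1 gave no call against wild type. MXI1 (202364_at) read 965, 719 and 732 in the 69-kDa line, 663, 672 and 644 for the 82-kDa line, and 783, 760 and 785 on the arrays labelled wild type. The 82-kDa arrays were the lowest throughout, and replicate 1 of the 69-kDa line was the highest. The difference from wild type was 0.04 in the 69-kDa line (95% interval -0.22 to 0.30, adjusted p = 0.82) and -0.23 in the 82-kDa line (-0.49 to 0.02, adjusted p = 0.18). The latter passed in replicates 2 and 3 alone (-0.23, adjusted p = 0.025), and also (0.027) when replicate 1 of the 69-kDa line was left out.

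MXD1 (206877_at) was dim, at 51.5 to 73.8 over all arrays, and its groups overlapped. Its differences were 0.20 (95% interval -0.06 to 0.46, adjusted p = 0.27) and 0.14 (-0.12 to 0.40, adjusted p = 0.40). The probe sets paired with both MXD4, an antagonist of the same family, and MIR4800 read 158 to 216 (210778_s_at), 296 to 399 (212346_s_at) and 264 to 457 (212347_x_at). Of these, 212347_x_at was lower in the 82-kDa line against wild type (-0.45, SE 0.13, adjusted p = 0.032) while the others gave 0.05 and -0.03 (adjusted p = 0.77 and 0.88). The probe sets disagree, and none can be assigned to MXD4 alone. In the 69-kDa line they gave 0.20, 0.03 and -0.21 (adjusted p = 0.25, 0.87 and 0.29).

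MGA, a large repressive partner of MAX, was called in 1 line, and over all 9 arrays the direct test between the lines did not pass (1.06 higher in the 82-kDa line, adjusted p = 0.9999, and 0.47 with the block). Its probe set (212945_s_at) read 146, 60.7 and 64.6 in the 69-kDa line, 205, 159 and 159 for the 82-kDa line, and 194, 160 and 159 on the arrays labelled wild type. Replicates 2 and 3 of the 82-kDa line and replicate 3 of wild type held the identical value 158.5913. Replicates 2 and 3 of the 69-kDa line were far below the other arrays, and replicate 1 was highest within each group. Against wild type, MGA was about 2.05-fold lower in the 69-kDa line (-1.03, SE 0.30, adjusted p = 0.036). The fold is approximate, as replicates 2 and 3 of that line were just above 55.9, the lowest lower quartile. In the 82-kDa line the difference was 0.02 (95% interval -0.67 to 0.72, adjusted p = 0.96). The call in the 69-kDa line held without its replicate 1, and was lost without its replicate 2 (adjusted p = 0.12) or 3 (0.12), without replicate 2 (0.055) or 3 (0.053) of the 82-kDa line, and without any array labelled wild type (0.077 to 0.11). Replicates 2 and 3 of the 69-kDa line were also the most alike pair of arrays within any group, with a median absolute log2 difference of 0.066 over all probe sets, against 0.086 to 0.25 for the other pairs.

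**Figure D3:**
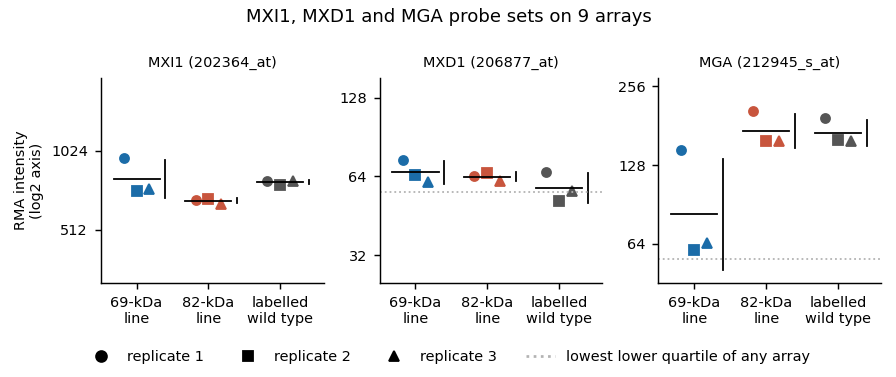
RMA intensity (log2 axes with different ranges) of the probe sets of MXI1, MXD1 and MGA on each of the 9 arrays; points are arrays, horizontal lines group means of log2 values and vertical lines 1 SD either side. MGA reads 60.7 and 64.6 on replicates 2 and 3 of the 69-kDa line and 146 to 205 on all other arrays.

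Counted over the network, 5 of the 16 probe sets rose in the 69-kDa line against wild type and 2 fell, together 43.8%, where 10.9% of all probe sets tested were called higher and 15.3% lower (26.2% in all). In the 82-kDa line 5 were higher and 1 lower (37.5%), beside 11.0% higher and 15.7% lower over all probe sets (26.8%). Counting a gene where any of its probe sets passed, MAX, MLX and MNT rose and MYC and MGA fell in the 69-kDa line, and MAX and MLX rose and MYC fell in the 82-kDa line. On the brightest probe set per gene, the rule for the lists that follow, MAX did not pass, so that 2 genes rose in the 69-kDa line and the other line had 1. The median log2 difference over the 16 was 0.30 and 0.23, beside 0.06 and 0.06 over all probe sets. Probe sets of 1 gene are not independent, and MAX and MLX hold 9 of the 16. In each comparison 7 of the 16 lay above wild type without overlap and 2 below, together 56.2%. Of all probe sets 22.5% and 20.9% lay above and 21.2% and 21.3% below (43.7% and 42.3% in all). Both comparisons use the same 3 arrays labelled wild type, so their likeness is partly built in.

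Under the fit that takes the replicate number as a block, 8 network probe sets rose and 2 fell in the 69-kDa line, where 16.6% of all probe sets rose and 19.9% fell (36.5% in all). In the 82-kDa line 7 rose and 1 fell, beside 17.9% and 20.3% (38.2%). In replicates 2 and 3 alone 7 rose and 2 fell in the 69-kDa line, beside 18.5% and 20.5% of all probe sets (39.0%). There 8 rose and 2 fell in the 82-kDa line, beside 19.4% and 20.2% (39.6%). The count of 5 higher fell to 3 in the 69-kDa line without its replicate 3 or without replicate 2 or 3 of wild type, and to 3 in the 82-kDa line without its replicate 3 or any array labelled wild type. The count of 1 lower in the 82-kDa line was 2 without replicate 1 of the 69-kDa line. That of 2 lower in the 69-kDa line was 1 without any of the 7 arrays named for MGA.

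**Figure D4:**
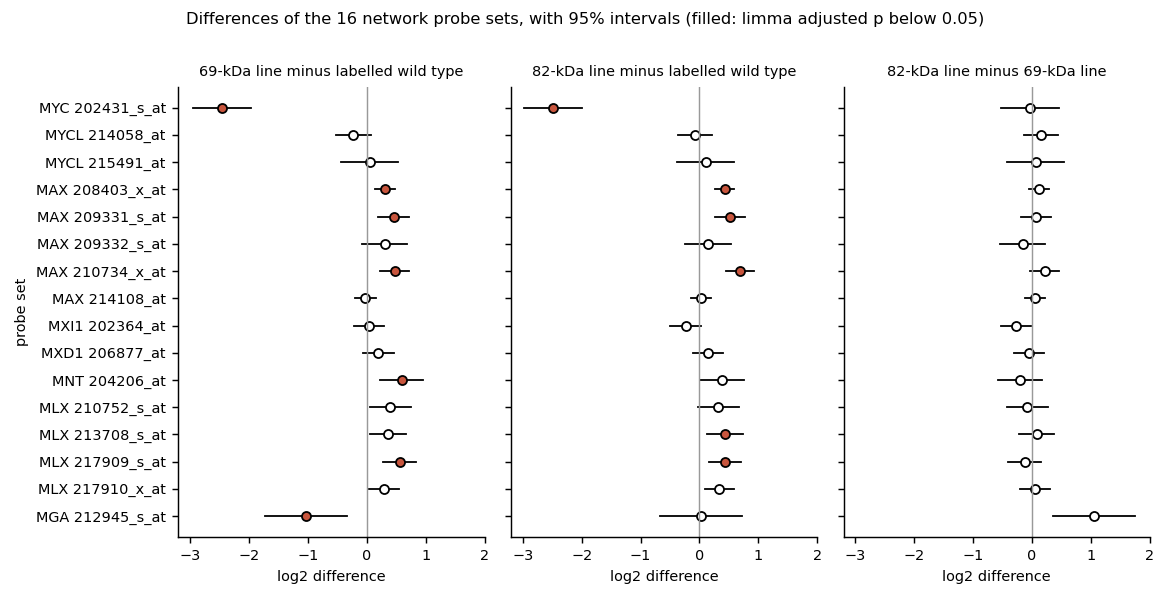
Log2 differences (x axis) of the 16 network probe sets (y axis) in the 3 comparisons of groups, with 95% intervals as lines; filled points passed a limma adjusted p of 0.05. MYC stands apart at -2.46 and -2.49 in the comparisons with the arrays labelled wild type, and no point is filled between the lines.

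Between the lines, limma called 0 of the 16 probe sets and 0 of all 22215 (0%), where 733 of all had an unadjusted p below 0.05. Of the network 2 did, MGA and MXI1, which are named here after their values were seen. MGA was 1.06 higher in the 82-kDa line (SE 0.30, unadjusted p = 0.0075, adjusted p = 0.9999), and MXI1 was 0.27 lower there (SE 0.11, unadjusted p = 0.040, adjusted p = 0.9999). In the 82-kDa line 2 probe sets (MGA and MAX 208403_x_at) lay wholly above the 69-kDa line and 1 (MXI1) wholly below, 18.8% in all, where 3.18% of all probe sets lay above and 3.66% below (6.84% in all). Apart from MGA and MXI1, the differences lay between -0.21 and 0.21. For MYC the difference was -0.03 with a 95% interval of -0.52 to 0.46, and for the MAX probe set 210734_x_at it was 0.21 (-0.03 to 0.46). In replicates 2 and 3 alone, where the calls were 0.981% of all probe sets upward and 1.06% downward (2.04% in all), MGA was 1.34 higher in the 82-kDa line (adjusted p = 0.0011) and was the 1 network probe set called. Without replicate 1 of the 69-kDa line it was 1.46 higher (adjusted p = 0.041). In both of these fits replicates 2 and 3 of the 82-kDa line held an identical MGA value.

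The wider family of E-box factors also moved both ways. Of 11 measured genes of that list, MYCN among them, 4 rose and 3 fell in each line, counted on the brightest probe set per gene. Of all genes 11.7% rose and 17.7% fell in the 69-kDa line (29.4% in all), and 11.8% and 18.5% in the 82-kDa line (30.3%). MLXIP, the glucose-sensing partner of MLX, was 1.57-fold higher in the 69-kDa line (adjusted p = 0.0058) and 1.34-fold in the 82-kDa line (0.043, lost without any array other than replicate 1 of the 69-kDa line or of wild type). MLXIPL, the other such partner, gave -0.12 (adjusted p = 0.58) and -0.20 (0.33). SREBF1, a factor of lipid synthesis, was 1.84-fold and 1.68-fold higher (adjusted p = 0.00046 and 0.0011). TFAP4, itself a target of MYC, was 1.32-fold and 1.51-fold higher (0.017 and 0.0023), the first call being lost without replicate 2 or 3 of wild type.

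USF2, which binds the same E-box without MAX, was 2.22-fold and 1.95-fold lower (adjusted p = 0.00024 and 0.00066). TCFL5, a factor best known from testis, gave -0.59 and -0.83 on the log2 scale (0.0011 and 0.00016). TFE3, a lysosomal and metabolic regulator, was 1.36-fold (0.027, lost without replicate 2 or 3 of that line or replicate 1 or 2 of wild type) and 1.93-fold lower (0.00052). MXD3, another MXD antagonist, gave 0.15 and 0.23 (adjusted p = 0.56 and 0.36), TFEB gave 0.23 and 0.23 (0.49 and 0.47) and MITF gave 0.03 and 0.06 (0.87 and 0.78).

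Co-repressor subunits used by MXD and MNT were lower where they were called. Of 8 measured, 3 fell and 0 rose in each line by limma (at an unadjusted p below 0.05, 1 rose in the 69-kDa and 0 in the 82-kDa line), and with the replicate block 2 rose and 3 fell in the 69-kDa line and 2 rose and 5 fell in the 82-kDa line. Without replicate 1 of the 69-kDa or of the 82-kDa line 1 rose in the 69-kDa line, and without replicate 1 of the 82-kDa line 1 rose in that line. The 37.5% called in each line stands beside 29.4% and 30.3% of all genes, and the block called 36.5% and 38.2% of all probe sets. HDAC1, a histone deacetylase, read 212 to 390.1 in the lines and 1579 to 1940 for the arrays labelled wild type. It was 6.09-fold lower in the 69-kDa line and 5.56-fold lower in the 82-kDa line (adjusted p = 4.1e-05 and 5.6e-05). The histone-binding subunit gene RBBP7 was 3.19-fold and 3.66-fold lower (0.00029 and 0.00015). RBBP4 was 1.35-fold and 1.27-fold lower (0.017 and 0.046), the first lost without replicate 3 of wild type and the second without any array other than replicate 1 or 3 of the 69-kDa line.

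Of 18 co-activators and chromatin partners of MYC, 4 rose and 3 fell in the 69-kDa line and 3 and 3 in the 82-kDa line (5 and 4 with the block in each). By limma without the block these are 38.9% and 33.3% of the list, again beside 29.4% and 30.3% of all genes. The block called 36.5% and 38.2% of all probe sets. Without replicate 1 of wild type 5 fell in the 82-kDa line. EP400, an ATPase of a histone acetyltransferase complex, was 1.80-fold and 1.60-fold higher (adjusted p = 0.0013 and 0.0046), and SMARCA4, a chromatin remodeller, 1.53-fold and 1.52-fold (0.0024 and 0.0025). PAF1, a subunit of an elongation complex, was 3.44-fold and 3.49-fold lower (3.2e-05 and 3.1e-05). RUVBL2, a helicase-like cofactor, was 1.79-fold and 1.66-fold lower (0.00063 and 0.0014), and TRRAP, a scaffold of acetyltransferase complexes, 1.49-fold and 1.71-fold (0.0026 and 0.0005001).

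Of 17 genes of MYC protein turnover 2 rose and 4 fell in each line (7 fell in the 82-kDa line with the block). The 35.3% called is near the 29.4% and 30.3% of all genes, and the block raised the share of all probe sets called in the 82-kDa line from 26.8% to 38.2%. In the 69-kDa line 1 rose without its replicate 2, and in the 82-kDa line 2 fell without its replicate 1 or without replicate 1 or 3 of wild type. GSK3B, a kinase that marks MYC for degradation, was 1.60-fold and 1.57-fold higher (adjusted p = 0.0061 and 0.0077). FBXW7, the ubiquitin ligase subunit that reads this mark, was 1.29-fold higher in the 69-kDa line (0.012, lost without its replicate 2) and 1.37-fold in the 82-kDa line (0.0041). AURKA, the kinase that shields MYCN protein from FBXW7, was 2.66-fold and 2.22-fold lower (0.021 and 0.048), the first lost without replicate 2 or 3 of wild type and the second without any array other than replicate 1 or 3 of the 69-kDa line. PPP2R5A, a phosphatase subunit, was 1.71-fold and 1.80-fold lower (0.0021 and 0.0013).

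Genes known to be induced by MYC proteins went in both directions. Of 41 measured, 11 rose and 8 fell in the 69-kDa line and 10 rose and 8 fell in the 82-kDa line. The shares called, 46.3% and 43.9%, stand beside 29.4% and 30.3% of all genes. The medians were 0.21 and 0.12 beside 0.05 and 0.05 over all genes. TFB2M, a mitochondrial transcription factor, was 3.03-fold and 3.06-fold higher (adjusted p = 0.0019 and 0.0018). PAICS, of purine synthesis, was 1.65-fold and 1.74-fold higher (0.0010 and 0.00058), and APEX1, a DNA repair enzyme, 1.46-fold and 1.39-fold (0.0011 and 0.0025). CCND2, a D-type cyclin, read 574 to 773 on the arrays labelled wild type and 28.5 to 37.2, near background, in the lines, about 21.1-fold and about 21.7-fold lower (1.8e-07 and 1.6e-07). FBL, a nucleolar methyltransferase, was 1.78-fold lower in each line (0.00035 and 0.00034), and SRM, spermidine synthase, 1.997-fold and 1.94-fold (0.00074 and 0.00094).

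Genes known to be repressed by MYC proteins also parted. Of 26 measured, 4 rose and 10 fell in the 69-kDa line and 5 rose and 10 fell in the 82-kDa line (53.8% and 57.7% called). Of all genes 29.4% and 30.3% were called, with 11.7% and 11.8% higher and 17.7% and 18.5% lower. The medians of the list were 0.01 and 0.07, beside 0.05 and 0.05 over all genes. The 5 that rose in the 82-kDa line became 3 without replicate 2 of the 69-kDa line or replicate 3 of the 82-kDa line, and 2 without replicate 2 of the 82-kDa line or any array labelled wild type. CCND1, another D-type cyclin, read 553 to 1787 in the lines and 206 to 352 for the arrays labelled wild type, 3.82-fold and 5.02-fold higher (adjusted p = 0.0092 and 0.0035). TIMP2, a metalloproteinase inhibitor, was 2.88-fold and 3.38-fold higher (7.6e-05 and 3.4e-05). Among those that fell, CDKN1A read 252 to 377 in the lines and 1196 to 1321 for the arrays labelled wild type. CLU read 88.7 to 147 and 1370 to 2036. The integrin gene ITGA6 was about 3.87-fold and about 4.09-fold lower (1.2e-05 and 9.1e-06). TGFBR2, a receptor of TGF-beta, was about 2.75-fold and about 2.56-fold lower (1.6e-05 and 2.4e-05). In the lines TGFBR2 read 51.7 to 62.8, around the lowest lower quartile of 55.9, and ITGA6 read 56.1 to 73.2, just above it. The folds of ITGA6 and TGFBR2 are therefore approximate.

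Of 11 targets of MLX and its partners in the 69-kDa line 1 rose, 3 did in the 82-kDa line, and 0 fell in either by limma (likewise 0 at an unadjusted p below 0.05). The shares called, 9.09% and 27.3%, are under the 29.4% and 30.3% of all genes. With the block 4 rose in each line and 2 fell in the 82-kDa line, beside 36.5% and 38.2% of all probe sets called. HK2, a hexokinase, was 11.3-fold and 9.11-fold higher and the member called in both (adjusted p = 8.9e-06 and 1.5e-05). TXNIP and PFKFB3, named after their values were seen, were the others in the 82-kDa line. Without replicate 1 of the 69-kDa line 5 rose in that line, and without replicate 2 of the 82-kDa line or any array labelled wild type 1 rose in the 82-kDa line.

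Of 18 genes that act upstream of MYC, 5 rose and 5 fell in the 69-kDa line and 6 rose and 4 fell in the 82-kDa line. The 55.6% called in each stands beside 29.4% and 30.3% of all genes. With the block 8 rose and 5 fell in each, while the block raised the share of all probe sets called from 26.2% and 26.8% to 36.5% and 38.2%. Without replicate 3 of wild type 3 rose in the 69-kDa line, and without replicate 3 of the 82-kDa line 3 rose in that line. FUBP1, which binds an element upstream of the MYC gene, was 1.99-fold and 2.22-fold higher (adjusted p = 0.00015 and 6.3e-05). The Wnt effectors LEF1 and TCF7L2 were lower in both lines. LEF1 read 262 to 286 on the arrays labelled wild type and 32.6 to 38.2, near background, in the lines, about 7.63-fold and about 7.58-fold lower (8.9e-08 for each). TCF7L2 was 3.72-fold and 3.31-fold lower (6.6e-05 and 0.00011), while TCF7L1, a relative that mainly represses, was 1.48-fold higher in the 69-kDa line (0.012, lost without replicate 3 of wild type) and 1.66-fold in the 82-kDa line (0.0032).

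**Figure D5:**
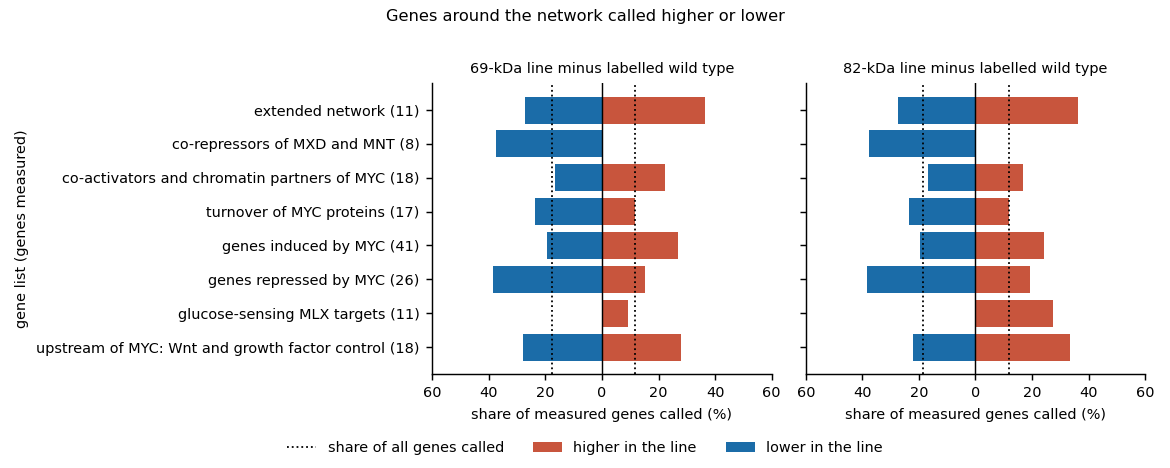
Share of the measured genes of 8 lists around the network (y axis, with the number measured) called higher (right) or lower (left) in each line than on the arrays labelled wild type, in percent; dotted lines mark the shares over all genes (11.7% and 17.7% in the 69-kDa line). Genes induced by MYC (41 measured) and genes repressed by MYC (26 measured) both extend to either side.

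The genes whose levels followed MYC most closely over the 9 arrays, among 1064 probe sets of other genes with a range of at least 2 on the log2 scale, were IRS4 (Pearson r = 0.994), KDM6A (0.992), GK3 (0.992), ANXA3 (0.991) and EFNB2 (0.991). Of these, IRS4 (35.5 to 39.7), GK3 (44.0 to 53.4) and ANXA3 (21.1 to 26.1) were near background on every line array, as MYC was, and entered the search through the arrays labelled wild type. EFNB2 read 67.7 to 85.3 in the lines and 506 to 798 for those arrays, and KDM6A read 80.3 to 99.1 and 215 to 334. The probe set of GK3 may also read a near-identical gene. These values describe 9 arrays in 3 groups and are carried mainly by the gap between wild type and the lines. For MXI1 the closest, among 1065 probe sets, were TRIB3 (r = 0.966), SLC3A2 (0.894), PCK2 (0.892), ATF5 (0.888) and IFRD1 (0.881). TRIB3, a stress-induced pseudokinase, read 209 to 981 over the lines and 396 to 466 for the arrays labelled wild type. Without replicate 1 of the 69-kDa line, where MXI1 was highest, these r were 0.904, 0.653, 0.649, 0.924 and 0.764, lower for all but ATF5.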

How the data were processed

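The deposited values are intensities that the authors made with RMA, per the submitters' processing notes, on a linear scale. No source used here gives the software, its version or the step from log2 back to linear. Of the 200547 values 79.5% occur more than 1 time in the table, for a reason not given there. The platform annotation paired 19065 probe sets with 1 symbol, 1043 with several and 2107 with none, and 68 control probe sets were left out. No columns of other series were present, and 0 pairs of arrays were identical.

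Log2 intensities of the 9 arrays entered 1 linear model of the 3 groups (limma 3.58.1, R 4.3.3; lmFit and eBayes, two-sided), and p-values were adjusted by Benjamini-Hochberg over the 22215 probe sets of a comparison, with a threshold of 0.05. The fit was tested on simulated data. Lists used the brightest probe set per gene (11963 genes), and adjusted p stayed that of the full fit. Named genes were all members, MYCN, the E-box factor list, up to 4 called genes per direction and list with the smallest adjusted p in the 69-kDa line (some are given here by count only), and the 5 most correlated genes. The members and lists were chosen with earlier results of these data known.

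Deviations from group means correlated at 0.28 to 0.57 in all 9 pairs of same-numbered arrays of different groups. Within each group replicate 1 stood apart, with median absolute log2 differences of 0.154 to 0.247 from the others, against 0.066 to 0.099 between replicates 2 and 3. Pairs with different numbers are not given, so these values do not show that replicates 2 and 3 are paired. No label gives a batch, and the replicate number was an alternative block. The other alternatives were between-array scaling, pseudocounts of 1 and 16, filters, 1 probe set per gene, other eBayes settings, array weights, 6 arrays, replicates 2 and 3 alone, each array left out and stricter thresholds. Arrays have no read depth, and 3 per group limits the precision.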

Additional observations from a re-analysis of the deposited data

Results flagged for a closer look

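MGA differed between the lines in a direct test, though only in part of the arrays. In replicates 2 and 3 alone it was 1.34 higher on the log2 scale in the 82-kDa than in the 69-kDa line (limma adjusted p = 0.0011). The 69-kDa arrays read 60.7 and 64.6, just above the lowest lower quartile of 55.9, so the size of the difference is approximate. Both 82-kDa arrays held the identical value 158.5913, as did replicate 3 of wild type, so the 82-kDa pair shows no spread. Repeated values are common in the deposited data for a reason not given. Over all 9 arrays the same difference was 1.06 and did not pass (adjusted p = 0.9999).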

How the results depend on the processing

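Counts of called probe sets below are higher and lower out of 16. In the 69-kDa line against wild type (5 and 2 as reported) they were 1 and 0 without probe sets that can match several transcripts (6 left), 2 higher with 1 probe set per gene (8 left), 8 higher with array weights and 8 with the replicate block. They were 1 and 1 at a threshold of 0.01, 0 higher at 2-fold or more, and 1 lower with the 6 arrays compared. In the 82-kDa line (5 and 1) they were 0 and 0 without those probe sets, 1 higher with 1 per gene, 9 and 2 with array weights, 8 and 2 in replicates 2 and 3 alone, 3 higher at 0.01 and 0 higher at 2-fold. With the probe sets shared by MXD4 and MIR4800 counted, an alternative added after seeing the data, 2 were lower. Between the lines (0 and 0) 9 were higher and 3 lower with array weights, and 1 higher in replicates 2 and 3 alone.

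With single arrays left out, the counts ran from 3 to 6 higher and 1 to 2 lower in the 69-kDa line, from 3 to 6 and 1 to 2 in the 82-kDa line, and from 0 to 1 and 0 to 0 between the lines. The array weights ran from 0.0918 to 61.1 and their estimation stopped before it converged. With them 9081 of all probe sets were higher and 7406 lower between the lines, and 4 network differences there reversed, to 0.19 (MNT), 0.14 (MLX 210752_s_at), -0.0946 (MAX 214108_at) and -0.15 (MLX 217910_x_at). The cause was not tested.

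MYC kept its direction and its call against wild type in both lines under every alternative that kept its probe set. Beside the blocked values given with the results, the block changed no other call of a network probe set. Of 1242 recomputed differences of network and MYCN probe sets, 1112 kept direction and side of the threshold, 49 lost the call, 41 gained one, 4 reversed and 36 uncalled values changed sign. Signals around or just above the lowest lower quartile or near background limit the precision of their folds. The former are MXD1, MAX 214108_at and MGA in replicates 2 and 3 of the 69-kDa line, the latter MYC in the lines.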
